A study of Mus musculus with 18 samples.

Results

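The mitochondrial ribosomal proteins of the mouse lung were taken as every gene of the messenger RNA table whose symbol begins with Mrps or Mrpl followed by a digit. There were 78 such genes among the 13384 listed, of which 29 carry the small subunit prefix Mrps and 49 the large subunit prefix Mrpl. All 78 had an FPKM (fragments per kilobase of transcript, scaled to the total of the library) of at least 1 in at least 3 libraries and were tested. The symbol alone chose the genes within the family, while the family itself was chosen with earlier results of these data known. Every listed gene had a mean of at least 0.5 FPKM in its highest group, so lower genes may be absent from the list.

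The study measured poly(A) RNA of whole mouse lung in 3 groups of 3 libraries. Control mice received phosphate-buffered saline. COPD model mice, a model of chronic obstructive pulmonary disease, were exposed to cigarette smoke, were injected intraperitoneally with cigarette smoke extract and received saline. BMSC-treated mice were the same model given 4000000 BMSCs, the mesenchymal stem cells of the series title, by tail vein in 100 µl of saline. The sources used here do not give strain, sex, age or the time from treatment to collection. They do not say that the libraries of a group are from different mice, and p-values therefore measure the spread between these libraries, which may be technical. All 6 alveolar type 2 markers fixed as a check of the tissue were listed, with a summed level of 805.4 to 4851 FPKM per library, among them the surfactant genes Sftpc and Sftpb.

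Mitochondria keep their own ribosome, which makes only the proteins encoded by mitochondrial DNA, the hydrophobic core subunits of the respiratory chain and ATP synthase. Its RNA comes from mitochondrial DNA, while all of its proteins are encoded in the nucleus, made in the cytosol and imported. The small subunit holds the messenger RNA and reads the codons, and the large subunit joins the amino acids and is anchored to the inner membrane. Promoters of nuclear genes for mitochondria often hold sites for NRF1, a factor that drives respiratory chain genes, for ETS factors such as GABPA, and for YY1.

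All 78 genes had RefSeq coordinates, and promoter sequences around the start on GRCm38.p6, the mm10 build, were available for 69 of them. Mrpl4, Mrpl13, Mrpl15, Mrpl19, Mrpl38, Mrpl54, Mrps28, Mrps34 and Mrps35 had no promoter sequence in the source used. Windows from 250 bases before to 50 bases after the start were searched on both strands. The NRF1 core GCGCATGC was found for 8 of 69 genes (11.6%). It was found for 5.62% of 10333 genes of the messenger RNA table with a promoter sequence and 3.05% of all 27025. The ETS letters CCGGAAGT were found for 12 (17.4%), against 8.57% and 4.31%. The YY1 letters AAGATGGCG were found for 8 (11.6%), against 3.33% and 1.64%. Any of the 3 was found for 26 of the 69 (37.7%), against 16.3% of the table's genes and 8.47% of all. These shares are a description of letters, not of binding. The windows had a median GC content of 58.3% and 21 CpG dinucleotides, beside 60.3% and 20 for the table's genes.

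The 250 bases before the start are shown for 4 genes that head the comparisons below and hold such letters there, on the coding strand from 5′ to 3′ with the matched letters in capitals. Mrpl10 lies on the plus strand at chr11:97041332-97041581 and holds the NRF1 core on the reverse strand, its first base 134 bases before the start. Mrpl22 (plus strand, chr11:58171414-58171663) and Mrpl33 (plus strand, chr5:31613701-31613950) hold it on the forward strand, 33 and 12 bases before the start. The start used for Mrpl22, at 58171664, lies inside the listed gene (58170043 to 58179580) and is not its first base. Mrps18c (plus strand, chr5:100798509-100798758) holds the ETS letters on the reverse strand, 157 bases before the start.
Mrpl10: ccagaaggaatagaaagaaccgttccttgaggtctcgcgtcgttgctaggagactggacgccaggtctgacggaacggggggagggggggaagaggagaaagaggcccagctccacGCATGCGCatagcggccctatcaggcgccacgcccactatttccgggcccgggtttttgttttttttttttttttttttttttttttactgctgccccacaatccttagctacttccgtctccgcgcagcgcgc
Mrpl22: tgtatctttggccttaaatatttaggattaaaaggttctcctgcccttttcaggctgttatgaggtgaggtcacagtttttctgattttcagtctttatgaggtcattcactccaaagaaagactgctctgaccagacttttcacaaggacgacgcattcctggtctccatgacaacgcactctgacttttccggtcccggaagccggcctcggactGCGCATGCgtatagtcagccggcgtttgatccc
Mrpl33: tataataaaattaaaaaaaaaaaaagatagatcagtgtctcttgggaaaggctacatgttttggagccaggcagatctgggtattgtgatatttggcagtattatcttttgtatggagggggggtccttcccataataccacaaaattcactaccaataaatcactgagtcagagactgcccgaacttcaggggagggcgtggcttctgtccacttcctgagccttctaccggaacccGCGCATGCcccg
Mrps18c: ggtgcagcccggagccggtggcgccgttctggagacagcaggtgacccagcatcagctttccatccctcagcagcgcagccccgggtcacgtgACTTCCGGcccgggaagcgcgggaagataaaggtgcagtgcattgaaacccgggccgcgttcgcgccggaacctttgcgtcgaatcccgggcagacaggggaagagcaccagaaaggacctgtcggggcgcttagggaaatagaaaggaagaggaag

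Start sites of these genes often lay back to back with another gene. A start on the opposite strand within 1000 bases upstream was found for 26 of 69 genes (37.7%), against 17.2% of the table's 10333 genes. In 1 case both partners belong to the ribosome: Mrpl46 of the large subunit and Mrps11 of the small subunit start 42 bases apart on chromosome 7, yet their mean levels over the 9 libraries were 7.06 and 1.45 FPKM. Mrps12, which encodes the decoding centre protein, starts 147 bases from Sars2, the mitochondrial seryl-tRNA synthetase, at 16.5 against 0.755 FPKM. Mrpl43 starts 116 bases from Twnk, the helicase that unwinds mitochondrial DNA for copying, at 21.3 against 1.49 FPKM. Mrps27 starts 108 bases from Ptcd2, at 3.19 against 4.32 FPKM. The genes were spread over 17 chromosomes, with 11 on chromosome 11, 8 on chromosome 17 and 0 on X.

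Levels of single genes spanned from 1.41 to 52.1 FPKM as means over the 9 libraries, with a median of 7.14 FPKM, beside 3.76 FPKM for all 11765 genes tested. FPKM is scaled to length, so levels of different genes were set side by side. How well this scaling serves short transcripts was not tested, so the order of genes is approximate. Mean levels reached 10 FPKM or more for 27 genes and were under 3 FPKM for 14. The median was 4.55 FPKM over small subunit genes and 7.69 FPKM over large subunit genes. The highest 4 were Mrps21 (chromosome 3, 95862634 to 95871514) at 52.1 FPKM, Mrpl52 at 41.1, Mrpl34 at 28.9 and Mrpl54 at 27.6. The lowest 4 were Mrps11 at 1.45, Mrps22 at 1.41, Mrpl3 at 1.58 and Mrpl15 at 1.52 FPKM. The order of the genes was much the same in every library: Spearman's rho over the 78 genes was 0.900 to 0.977 between 7 of the libraries, and 0.807 to 0.864 in comparisons with control 1 or BMSC-treated 1. These are descriptions across genes of libraries of the same tissue, and genes are not independent replicates.

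Control 1 and BMSC-treated 1 stood apart from the other libraries. Transcripts of the mitochondrial genome made up 89.3% and 92.2% of all FPKM there, against 23.9% to 70.8% elsewhere, and 13 and 24 of the 78 genes were under 1 FPKM, against 0 or 1. Mrps11 in BMSC-treated 1 was the only listing of 0 in the family. Relative to its mean over the 7 others (leaving out the library itself where it was among them), a gene of the family deviated with an SD of 0.557 and 0.574 log2 in these libraries, against 0.193 to 0.322 in the others, on the rescaled values described next. Ciliated cell markers, all 6 listed, were also low there, with sums of 58.7 and 55.1 FPKM against 327.3 to 884.5 FPKM elsewhere. Rescaled, these sums were 139.4 and 185.8 against 375.1 to 687.6. Alveolar type 2 markers were low there as deposited, at 943.4 and 805.4 FPKM against 2234 to 4851 FPKM. Rescaled, at 2239 and 2715, they lay within the 1765 to 3465 of the others. The part of these markers in the results was not tested.

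FPKM is scaled to the whole library, so genes that take a large part of it lower the values of the others. All genes together summed to between 482916 FPKM (COPD model 3) and 685090 FPKM (BMSC-treated 1). Scgb1a1, the main secretory product of club cells, together with mitochondrial transcripts took most of that sum. The summed level of the 78 genes, as deposited, was 308.7, 710.7 and 944.5 FPKM in control 1 to 3, 1122, 1022 and 1029 FPKM in COPD model 1 to 3, and 217.0, 590.2 and 887.1 FPKM in BMSC-treated 1 to 3. COPD model libraries lay above all others, and the highest library was 5.17 times the lowest. Each library was therefore also rescaled to the same sum over all genes except Scgb1a1 and the mitochondrial genes. On that scale the sums were 732.7, 748.6 and 788.3 in control, 856.2, 794.4 and 734.9 in the COPD model, and 731.5, 676.3 and 701.1 after BMSCs. The highest was 1.27 times the lowest. Control and COPD model libraries overlapped. BMSC-treated libraries lay just below both, their highest at 731.5 against a lowest of 732.7 in control and 734.9 in the COPD model. Without Mrps21, the most abundant member, BMSC-treated sums of 639.4 to 670.1 overlapped control, at 662.5 to 718.9, and lay just below the COPD model, at 670.8 to 784.3. In shares of the FPKM outside Scgb1a1 and mitochondrial genes, the family held 0.493% to 0.530% in control, 0.495% to 0.576% in the COPD model and 0.455% to 0.492% after BMSCs.

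**Figure D1:**
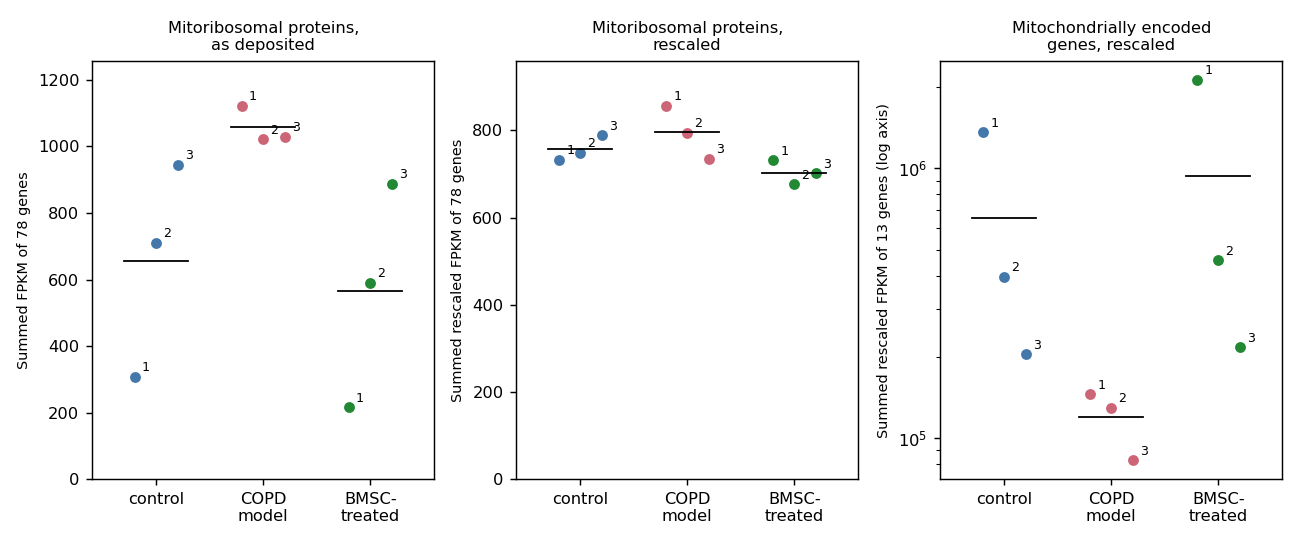
Summed level of the 78 mitochondrial ribosomal protein genes by library as deposited (left, FPKM) and rescaled (middle), and of the 13 mitochondrially encoded genes rescaled (right, log axis). Points are libraries numbered 1 to 3 and lines are group means: the middle panel runs from 676.3 to 856.2, while the right panel spans 25.8-fold. As deposited, the mitochondrially encoded genes spanned 5.47-fold.

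The messenger RNAs that this ribosome translates ranged far more widely on the rescaled scale, but not as deposited. As deposited, the highest library was 5.47 times the lowest for the 13 mitochondrially encoded genes and 5.17 times for the family. The sum used for rescaling includes the family and leaves out the mitochondrial genes. The 13 mitochondrially encoded genes summed to between 82477 and 2129910 rescaled FPKM, a range of 25.8-fold, and per unit of ribosomal protein FPKM they stood at 1861, 529.0 and 259.8 in control, 169.6, 162.9 and 112.2 in the COPD model, and 2912, 675.6 and 309.5 after BMSCs. COPD model libraries had the lowest ratio and overlapped no other library. Both subunits moved little on the rescaled scale, with sums of 221.9 to 278.1 for Mrps genes and 446.3 to 578.1 for Mrpl genes. The ratio of Mrps to Mrpl sums was 0.529, 0.496 and 0.516 in control, 0.481, 0.416 and 0.515 in the COPD model and 0.560, 0.515 and 0.463 after BMSCs, and the groups overlapped.

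The first comparison asked what smoke and smoke extract changed. By limma with Benjamini-Hochberg adjustment over all 11765 genes, 0 of 78 members passed an adjusted p under 0.05 as deposited, beside 0.0765% of all genes, and 0 passed rescaled, beside 0%. The smallest adjusted p among them was 0.514 as deposited and 0.754 rescaled. At an unadjusted p under 0.05 there was 1 member as deposited and 3 rescaled, or 1.28% and 3.85% beside 6.59% and 4.48% of all genes. As deposited, 77 of 78 log2 changes lay above 0 (98.7%, beside 94.4% of all genes), with a median of 0.69 beside 0.66 for all genes. Rescaled, 50 lay above 0 (64.1%, beside 64.7%), with a median of 0.07 beside 0.14. The COPD model libraries all lay above the control libraries for 34 members as deposited (43.6%, beside 23.7% of all genes) and below for 0 (beside 0.314%). Rescaled, they lay above for 9 (11.5%, beside 7.09%) and below for 3 (3.85%, beside 3.9%).

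**Figure D2:**
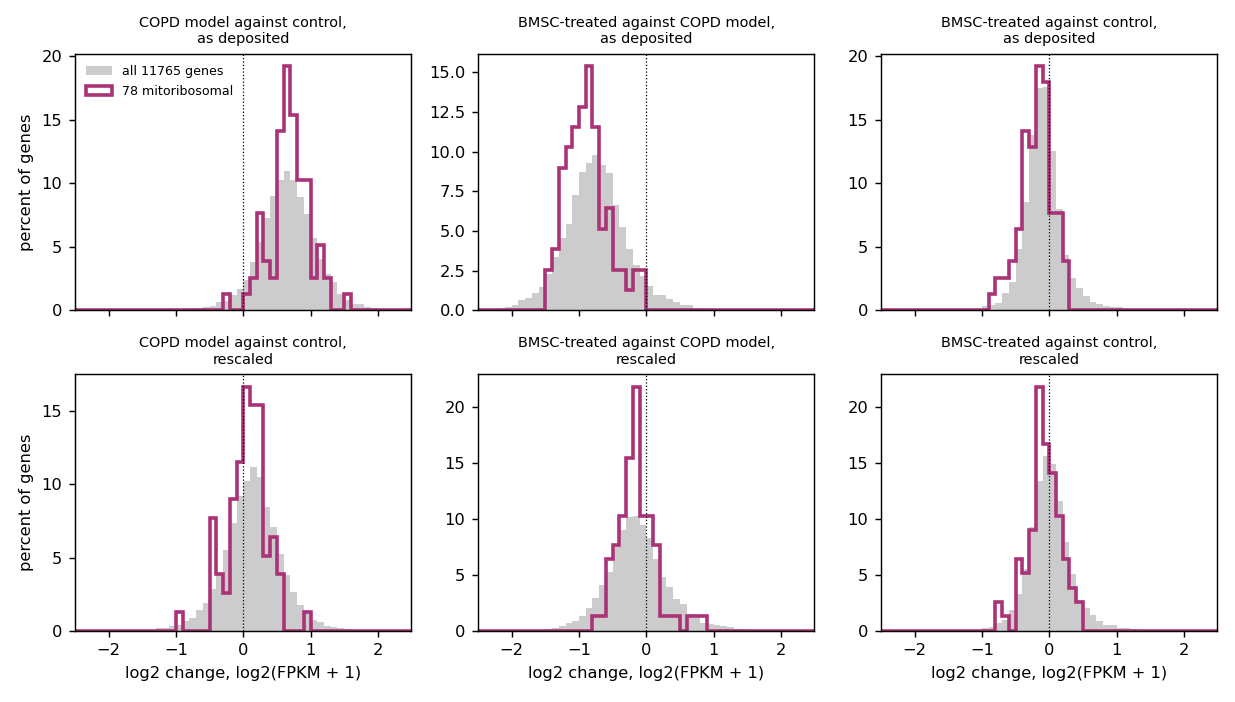
Distribution of log2 changes of the 78 mitochondrial ribosomal protein genes (line) and of all 11765 genes tested (grey), as percent of genes per 0.1 log2, for 3 comparisons as deposited (top) and rescaled (bottom). The median of the family lies farthest from that of all genes in the top middle panel, at -0.90 against -0.75.

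Among genes higher in the COPD model after rescaling, Mrps28, which encodes a small subunit protein, came first. Its level was 2.83, 12.4 and 16.7 FPKM in control and 35.2, 26.1 and 24.5 FPKM in the COPD model, or 6.72, 13.1 and 13.9 against 26.9, 20.3 and 17.5 rescaled, and the groups did not overlap on either scale. The log2 change was 1.59 ± 0.75 (SE) as deposited and 0.92 ± 0.31 rescaled. BMSC-treated libraries, at 16.9, 17.2 and 11.2 rescaled, lay below the COPD model and overlapped control. Mrpl10, which forms the base of the flexible stalk that recruits translation factors, stood at 9.34, 12.5 and 16.4 rescaled in control and 21.8, 19.0 and 16.1 in the COPD model, a log2 change of 0.56 ± 0.24 with groups that overlapped by 1 library. Mrpl16, a large subunit protein of the core shared with bacteria, stood at 5.96, 3.97 and 7.83 against 8.80, 8.77 and 9.06 (0.55 ± 0.27). Mrpl22, which lines the exit tunnel of the nascent chain, stood at 7.32, 11.8 and 12.6 against 15.6, 14.7 and 15.9 (0.54 ± 0.30). Mrps28, Mrpl10 and Mrpl22 had their lowest control value in control 1. Mrps7, Mrps9, Mrpl24, Mrpl37, Mrpl38 and Mrpl50 were the other 6 of the 9 members that lay above control throughout.

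On the other side, Mrps23 of the small subunit stood at 9.26, 12.4 and 8.05 rescaled in control, 3.32, 5.81 and 5.02 in the COPD model and 11.6, 10.6 and 4.76 after BMSCs. COPD model values lay below all control values on this scale, with a log2 change of -0.94 ± 0.34, and overlapped as deposited (-0.29 ± 0.69). Mrps36 differs from the rest in function: despite its symbol, its product is known as a subunit that anchors the E3 enzyme in the 2-oxoglutarate dehydrogenase complex of the citric acid cycle. It stood at 9.88, 11.8 and 8.42 rescaled in control and 6.55, 5.74 and 8.72 in the COPD model, overlapping by 1 library (-0.47 ± 0.22). Mrpl30, a large subunit protein, stood at 9.48, 7.12 and 5.45 against 6.85, 4.32 and 3.91 (-0.47 ± 0.29). Mrpl15 stood at 3.91, 1.38 and 1.37 against 1.03, 1.20 and 1.38 (-0.46 ± 0.36), so that its difference came from control 1. Mrps12, the decoding centre protein in which bacterial streptomycin resistance arises, stood at 19.8, 21.9 and 19.7 in control and 19.3, 14.2 and 12.6 in the COPD model, with no overlap. Mrps35 was the third member below control throughout. For the 8 members given here with a log2 change, the limma adjusted p was 0.754 rescaled and 0.514 to 0.95 as deposited.

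**Figure D3:**
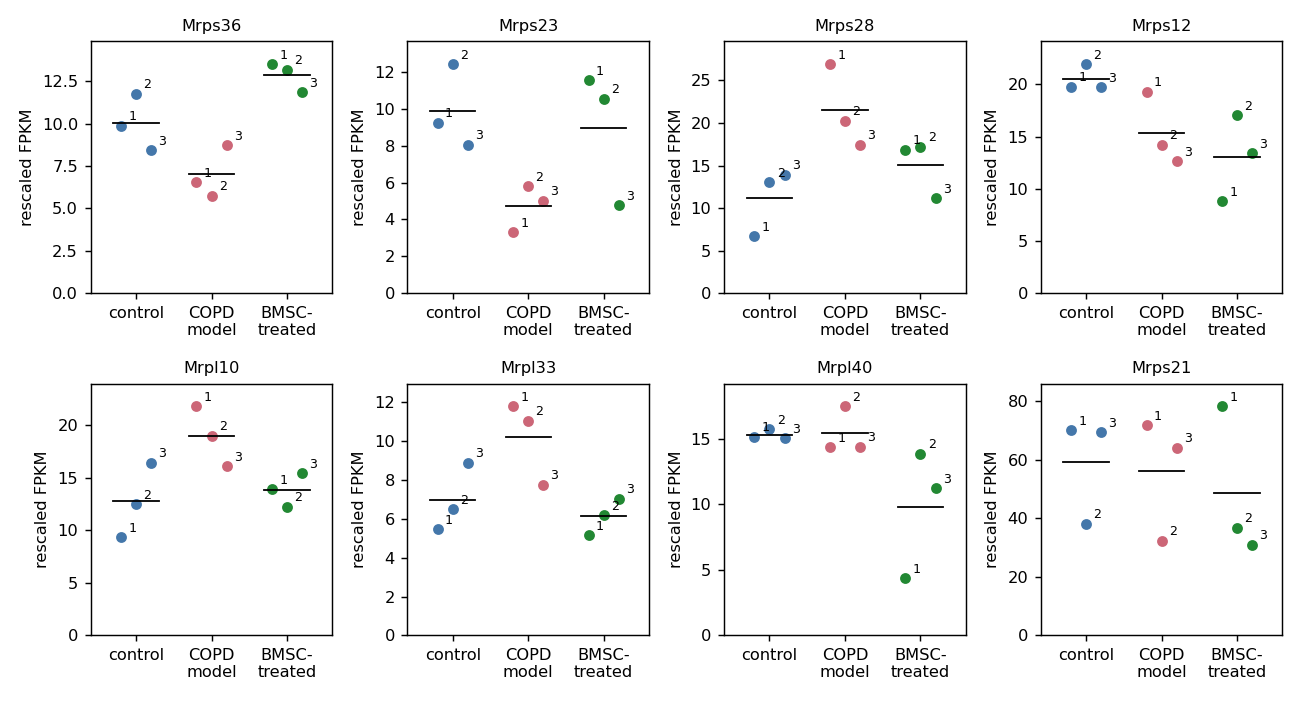
Rescaled FPKM of 8 members by library (points, numbered 1 to 3) with group means (lines), each axis from 0. Mrps36 after BMSCs lies above the other groups, Mrps28 in the COPD model above control, Mrps23 in the COPD model below control, and Mrps21 splits into a low and a high set of libraries within each group.

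The second comparison asked what BMSCs changed in the model, and it shares the COPD model libraries with the first. By limma 0 of 78 members passed as deposited, beside 0.127% of all genes, and 0 passed rescaled, beside 0%. The smallest adjusted p was 0.375 as deposited and 0.622 rescaled. There was 1 member at an unadjusted p under 0.05 as deposited and 4 rescaled, or 1.28% and 5.13% beside 11.1% and 7.8% of all genes. As deposited, 0 of 78 log2 changes lay above 0 (beside 5.93% of all genes), with a median of -0.90 beside -0.75. Rescaled, 20 lay above 0 (25.6%, beside 34.9%), with a median of -0.17 beside -0.16. BMSC-treated libraries all lay below the COPD model for 43 members as deposited (55.1%, beside 31% of all genes) and above for 0 (beside 0.272%). Rescaled, they lay below for 17 (21.8%, beside 14.2%) and above for 2 (2.56%, beside 6.25%). Of the 17, 14 were large subunit genes and 3 small subunit genes, Mrps9, Mrps28 and Mrps30, and the product of Mrps30 is known to sit in the large subunit despite its name.

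Mrps36 stood highest after BMSCs, at 13.5, 13.2 and 11.8 rescaled against 6.55, 5.74 and 8.72 in the COPD model, a log2 change of 0.81 ± 0.22 with an unadjusted p of 0.00469 and an adjusted p of 0.622 by limma. It was also above every control library, which reached 11.8, with 11.85 in BMSC-treated 3 and 11.76 in control 2. As deposited its values were 4.00, 11.5 and 15.0 FPKM after BMSCs and 8.59, 7.38 and 12.2 FPKM in the model, and the log2 change was -0.03 ± 0.71. Mrpl15 was the other member above the COPD model throughout, at 3.84, 1.54 and 1.41 (0.49 ± 0.36), where BMSC-treated 1 alone was far from the rest. Mrps23 (0.75 ± 0.34) and Mrpl42 (0.68 ± 0.31) had higher means with overlap. Mrpl42 stood at 13.4, 7.02 and 6.19 against 3.28, 5.42 and 6.41.

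Mrpl40 stood at 4.37, 13.9 and 11.2 after BMSCs against 14.4, 17.5 and 14.4 in the COPD model, rescaled, a log2 change of -0.72 ± 0.34. Its gene lies on chromosome 16 (18872018 to 18876637), in the mouse counterpart of the region lost in human 22q11.2 deletion. Mrpl33, a short protein kept from the bacterial ribosome, stood at 5.16, 6.18 and 7.03 against 11.8, 11.1 and 7.76 (-0.64 ± 0.25), and control at 5.46, 6.50 and 8.89 overlapped both. Mrpl37 stood at 2.37, 2.51 and 4.32 against 4.90, 5.20 and 4.69 (-0.58 ± 0.25). Mrpl22 stood at 6.49, 13.5 and 12 against 15.6, 14.7 and 15.9 (-0.55 ± 0.30). All 4 lay below the COPD model in every library on both scales. Mrpl12, the stalk protein that has also been reported to bind the mitochondrial RNA polymerase, stood at 14.3, 13.4 and 16.6 against 25.3, 22.6 and 17.7, below both the COPD model and control, at 19.2, 20.9 and 22.5. Mrpl41, a large subunit protein that bacteria lack, stood at 14.3, 15.4 and 18.9 against 21.7, 19.0 and 21.7. The limma adjusted p of the members with a log2 change given here was 0.622 to 0.64 rescaled and 0.375 to 0.975 as deposited.

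The third comparison set BMSC-treated against control lungs. By limma 0 of 78 members passed as deposited and 0 rescaled, beside 0% of all genes on either scale, with a smallest adjusted p of 0.9999 as deposited and 0.9995 rescaled. At an unadjusted p under 0.05 there were 0 members as deposited and 2 rescaled, or 2.56% beside 2.43% of all genes. As deposited 15 of 78 log2 changes lay above 0 (19.2%, beside 32.5%), with a median of -0.17 beside -0.10, and the groups did not overlap for 0 members in either direction, beside 0.178% of all genes higher and 0.382% lower. Rescaled, 29 lay above 0 (37.2%, beside 48.6%), with a median of -0.07 beside -0.01. BMSC-treated libraries lay below control throughout for 7 members (8.97%, beside 2.69%), which were Mrps12, Mrpl12, Mrpl18, Mrpl40, Mrpl43, Mrpl51 and Mrpl58, and above for 1 (1.28%, beside 2.84%), Mrps36. Across genes, libraries numbered 1 and 3 in these groups deviated most like their same-numbered partner. Rescaled, BMSC-treated 2 was closer to control 3 (r of 0.205) than to control 2 (0.162), so its pair is weakly based. Within the 3 same-numbered pairs, 17 members were lower after BMSCs every time (21.8%, beside 12.5% of all genes) and 6 were higher every time (7.69%, beside 10.8%), Mrps7, Mrps26, Mrps36, Mrpl9, Mrpl11 and Mrpl16.

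Mrps12 had the smallest rescaled p of the family in this comparison, at 8.83, 17.05 and 13.4 rescaled after BMSCs against 19.8, 21.9 and 19.7 in control, a log2 change of -0.65 ± 0.26 with an unadjusted p of 0.0351. Mrpl40 stood at 4.37, 13.9 and 11.2 against 15.2, 15.7 and 15.1 (-0.72 ± 0.34). Mrpl53 stood at 13.7, 1.46 and 6.07 against 16.1, 7.15 and 8.08 (-0.77 ± 0.57), each lower than its same-numbered control. Mrps6, a small subunit protein, stood at 7.17, 15.4 and 14.9 against 8.82, 25.2 and 21.9 (-0.49 ± 0.41), again lower in each same-numbered pair. Higher means were those of Mrps18c (0.47 ± 0.25), Mrps28 (0.43 ± 0.31), Mrps7 (0.39 ± 0.22) and Mrps36 (0.34 ± 0.22). Mrps18c stood at 32.2, 18.2 and 21.5 against 13.8, 19.0 and 17.1, with overlap. Mrps7, a protein of the head of the small subunit, stood at 10.98, 6.93 and 9.22 against 5.58, 6.62 and 7.52, with overlap. The limma adjusted p was 0.9995 rescaled for each of them.

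Without control 1 and BMSC-treated 1, the counts of members whose rescaled groups did not overlap were 12 higher and 6 lower in the COPD model than in control (15.4% and 7.69%, beside 9.88% and 6.91% of all genes). After BMSCs they were 8 higher and 23 lower than in the COPD model (10.3% and 29.5%, beside 11.3% and 17.7%). Against control they were 7 higher and 25 lower (8.97% and 32.1%, beside 18.1% and 17.5%). With 2 libraries in a group such separation is common, as the shares of all genes show. In these 7 libraries the rescaled log2 change of Mrps36 after BMSCs was 0.77 against the COPD model, and that of Mrps23 in the COPD model was -0.97 against control. Others moved nearer to 0. In the COPD model against control, Mrps28 stood at 0.62, Mrpl10 at 0.37, Mrpl22 at 0.32, Mrpl30 at -0.30 and Mrpl15 at -0.11. After BMSCs against the COPD model, Mrpl40 stood at -0.28, Mrpl22 at -0.25, Mrpl42 at 0.37 and Mrpl15 at 0.17. After BMSCs against control, Mrpl40 stood at -0.28, Mrps12 at -0.44, Mrps18c at 0.13, Mrps28 at 0.04 and Mrps7 at 0.16, while Mrpl53 stood at -1.05 and Mrps6 at -0.61.

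**Figure D4:**
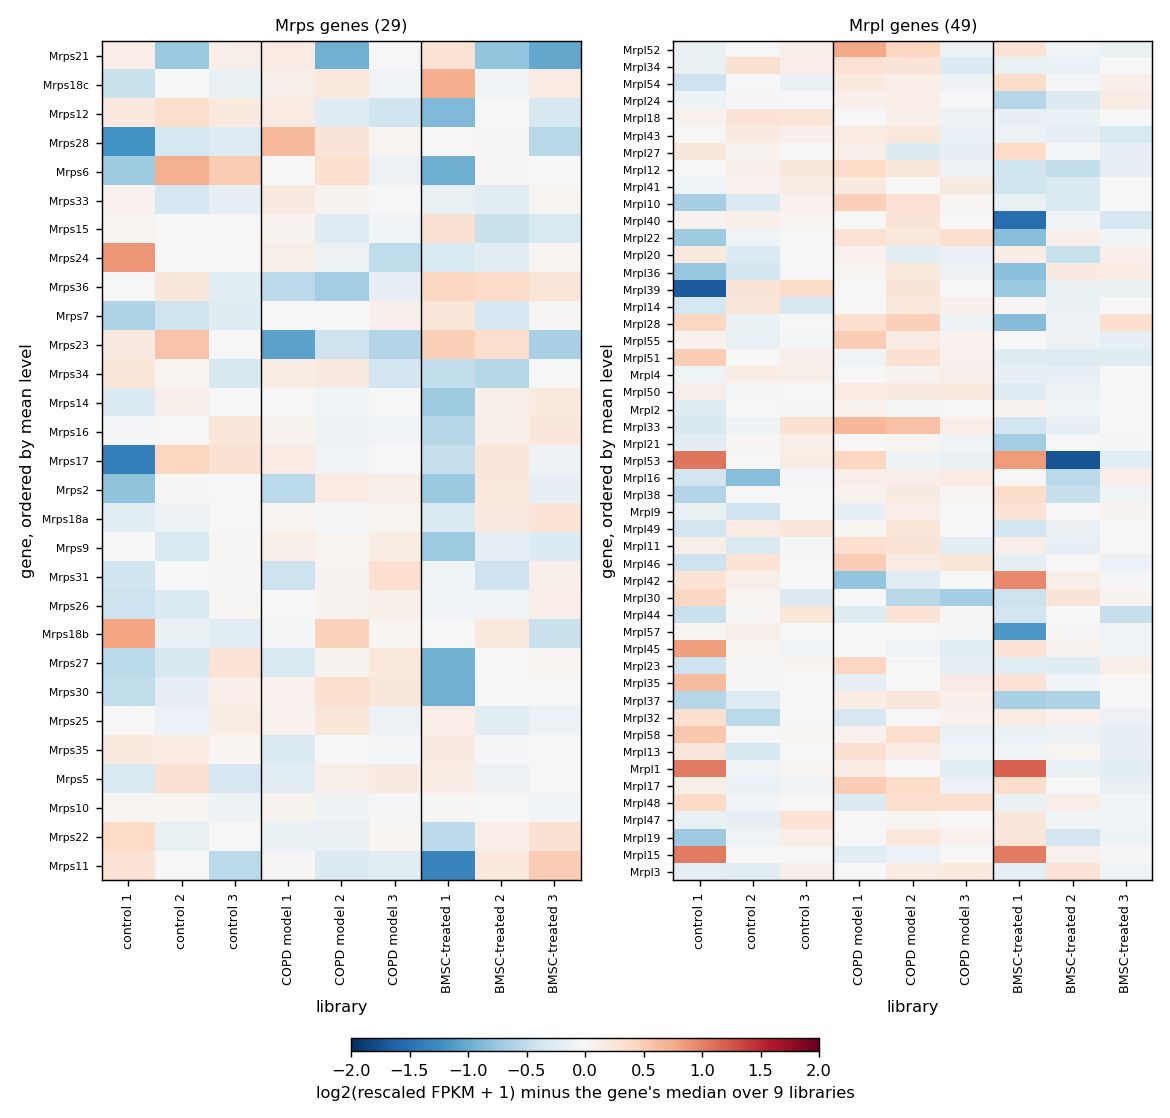
Rescaled level of each of the 78 genes by library, as log2(rescaled FPKM + 1) minus the gene's median over 9 libraries, with small subunit genes at left and large subunit genes at right, each ordered by mean level. Most of the strongest colours stand in the columns of control 1 and BMSC-treated 1, besides Mrpl53 in BMSC-treated 2, and no block of genes separates the 3 groups.

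Most members were steady across the other 7 libraries, with a median SD of 0.202 log2 on the rescaled scale and a median coefficient of variation of 16.1%. With all 9 libraries the median SD was 0.275 log2. The steadiest was Mrpl2, a protein near the catalytic centre of the large subunit, at 8.91 to 10.1 rescaled in those 7 libraries (SD 0.0478 log2), followed by Mrpl57 (0.0593), Mrpl21 (0.0660) and Mrps10 (0.0701). The most variable was Mrpl53 (0.696), then Mrps23 (0.587) and Mrps21 (0.529). Mrps21, the most abundant member, stood at 70.2, 38.1 and 69.5 in control, 71.8, 32.4 and 64.1 in the COPD model and 78.2, 36.8 and 31.0 after BMSCs. These values fell into a set of 4 libraries between 31.0 and 38.1 and a set of 5 between 64.1 and 78.2, present in every group. The product of Mrps21 is a short small subunit protein, and it alone held 4.08% to 10.7% of the family's FPKM.

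The proteins known for their place on the ribosome or for human disease had overlapping levels in the groups, apart from those said here to differ. Mrps18a, Mrps18b and Mrps18c are related proteins that descend from 1 bacterial protein, and the product of Mrps18a sits in the large subunit. Mrps18c had the highest level of the 3 in every library, at 13.8 to 32.2 rescaled, against 2.83 to 4.72 for Mrps18a and 1.88 to 5.78 for Mrps18b. Mrps2 and Mrps5, core small subunit proteins, stood at 2.11 to 5.30 and 1.30 to 2.58. Mrps16, Mrps22 and Mrps34, in which variants cause inherited deficiency of mitochondrial translation in people, stood at 3.19 to 6.36, 0.658 to 2.13 and 4.91 to 9.29, and Mrpl3 and Mrpl44, of the same kind, at 1.15 to 1.99 and 4.54 to 8.08. On the rescaled scale the groups overlapped for each of these 10 genes.

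Mrps27, a pentatricopeptide repeat protein, stood at 1.22 to 4.16 rescaled and Mrps30 at 0.763 to 3.29, with both minima in BMSC-treated 1. Mrpl11, which forms the stalk base with Mrpl10, stood at 5.23 to 8.68. Mrpl28 stood at 4.94 to 14.2 and Mrpl36, a short bacterial-type protein of the large subunit, at 6.55 to 14.5, also with minima in BMSC-treated 1. Mrpl45, which tethers the exit tunnel to the inner membrane, stood at 9.21 in control 1 and at 3.93 to 5.94 in the other 8 libraries. Mrpl58, a peptide hydrolase that frees stalled chains and is built into the large subunit, stood at 5.33, 3.35 and 3.48 in control, 3.62, 4.52 and 2.95 in the COPD model and 2.95, 3.01 and 2.85 after BMSCs, where it lay below every control library.

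Other nuclear genes of mitochondrial translation and gene expression also had none passing by limma. Ribosomal proteins under other symbols (Dap3, Ptcd3, Chchd1, Aurkaip1 and Gadd45gip1) had 0 of 5 passing in each comparison, with rescaled medians of 0.14, -0.11 and 0.03 log2 in the 3 comparisons in the order above. Translation factors such as Tufm and Gfm1, which deliver aminoacyl-tRNA and move the ribosome, had 0 of 13, with medians of 0.05, -0.09 and -0.02. Assembly and ribosomal RNA modification factors had 0 of 23, with medians of 0.25, -0.29 and 0.02. Rescaled, 7 of these 23 lay above control throughout in the COPD model and 0 below, beside 7.09% and 3.9% of all genes. After BMSCs, 6 lay below the COPD model throughout and 0 above, beside 14.2% and 6.25%. Genes that copy and transcribe mitochondrial DNA had 0 of 14, with medians of 0.14, -0.12 and 0.03, and transcriptional regulators, among them Nrf1, Gabpa and Yy1, had 0 of 8, with medians of 0.09, -0.06 and -0.01. By the same rescaled count, 3 of the 14 lay above control in the COPD model and 0 below, and after BMSCs 5 lay below the model and 0 above. Translation factors had 0 above and 2 below, then 3 below and 0 above. Regulators had 2 above and 0 below, then 1 below and 0 above. Ribosomal proteins under other symbols had 0 either way, then 1 below and 0 above. All genes tested had rescaled medians of 0.14, -0.16 and -0.01. Mitochondrially encoded genes stood elsewhere, with rescaled medians of -2.07, 2.37 and 0.28 and 0 of 13 passing, and with 4 lower, 8 higher and 0 passing as deposited.

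Summed rescaled markers of other cells stood apart between groups for some lists. Club cell markers (4 of 4 listed) were at 117243 to 196087 in the COPD model, above control at 16578 to 88207 and BMSC-treated libraries at 27489.9 to 43169, which overlapped each other. This sum was mostly Scgb1a1, which the rescaling leaves out. In COPD model 1, Scgb1a1 took 39.2% of the 633373 FPKM, and the list summed to 256876 FPKM. The other club cell markers were not summed apart. Macrophage markers (5 of 5 listed) were at 28.1 to 40.0 after BMSCs, above control at 17.7 to 26.0 and the COPD model at 15.7 to 27.4. Neutrophil markers (4 of 4 listed) were at 214.2 to 528.8 after BMSCs, above the COPD model at 84.9 to 202.0, and control at 113.3 to 1980 overlapped both. Hepatocyte markers (3 of 4 listed) were low throughout, at 2.19 to 6.00 after BMSCs, 0.594 to 1.99 in control and 0.334 to 4.44 in the COPD model. Red cell markers (5 of 5 listed) reached 4767 in control 1 and 5818 in BMSC-treated 1, against 284.2 to 910.6 in the other 7 libraries. Groups overlapped for alveolar type 2, ciliated, endothelial, skeletal muscle and cardiomyocyte markers. Cardiomyocytes, which are rich in mitochondria, had all 6 markers listed, at 36.4 to 198.5 in control, 100.5 to 186.0 in the COPD model and 56.3 to 193.6 after BMSCs. Brown fat had 2 of 4 listed, without its defining marker Ucp1, at 16.2 to 25.3 after BMSCs, above the COPD model at 6.30 to 13.8, with control at 0 to 31.9 across both. Skeletal muscle had 2 of 5 listed. In whole lung, fewer cells of a type and less RNA per cell cannot be told apart, and the part of cell make-up in the values of the ribosomal protein genes was not tested.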

How the data were processed

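Gene expression was measured by RNA sequencing of poly(A)-enriched RNA from lung, with a stranded KAPA library kit per the labels' protocols. The authors deposited FPKM values per gene. The submitters' processing notes name FastQC, cutadapt, StringTie, Bowtie and the mm10 build, and which of these served the messenger RNA is not given in the sources used here. Low FPKM values did not give the worth of 1 read (82 of 892, 12 of 138 and 7 of 66 low genes fell within 0.02 log2 of the commonest ratio), so the depth per library is unknown. Deposited transfer RNA fragment tables were not used here. Members of the family were found by symbol, and 78 of 78 matched the gene name table.

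Genes with at least 1 FPKM in at least 3 libraries were kept, 11765 of 13384. A linear model of log2(FPKM + 1) was made with limma 3.58.1 (R 4.3.3) over all 9 libraries with a variance trend, and p-values were adjusted over all genes tested at a threshold of 0.05. Fold changes on this scale understate the change of low genes. The script was tested on simulated data. With 3 libraries against 3, an exact permutation test of a single value cannot go below p = 0.1, so none was used. The same fit was run on values rescaled so that all genes but Scgb1a1 and the mitochondrial ones had the same sum. Alternatives were another scaling, pseudocount, filter, set of libraries, variance trend and a replicate block. The replicate block grouped same-numbered libraries of all 3 groups, the COPD model among them. Control and BMSC-treated libraries of the same number had an r of 0.63, 0.19 and 0.50 across genes, as deposited. BMSC-treated 2 had the same r of 0.19 with control 3, and BMSC-treated 3 had 0.31 with control 2. The pairing is thus weakly based for number 2. These numbers were taken as pairs only to count members lower or higher in every pair. The main fit used no pairs.

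Described genes were those with a known role, the 4 highest and 4 lowest, those listed at 0, and for each comparison the 4 largest rescaled changes in each direction. The family, the lists and these rules were chosen with earlier results of these data known.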

Additional observations from a re-analysis of the deposited data

How the results depend on the processing

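Depth is unknown, only 3 libraries stand in each group, and the standard error of a member's log2 change had a median of 0.688 as deposited and 0.248 rescaled. The count of members passing the limma threshold was 0 in each comparison under every alternative run. The smallest limma adjusted p of a named member was 0.0706, with the replicate block. That block also joins COPD model libraries to the same numbers. As deposited, their r with same-numbered control libraries was -0.017, 0.18 and -0.17, and with BMSC-treated libraries 0.046, -0.055 and -0.10. The block is thus weakly based for the COPD model. The replicate block left 0 members called and changed no call of a member, and with it the rescaled changes below keep their values. For named members, 687 values kept their direction and side of the threshold and 55 turned direction, and the cause was not tested.

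In the COPD model against control, where deposited values gave 0.04 for Mrpl15, 0.18 for Mrpl30 and 0.20 for Mrps36, rescaling to an equal sum, alone or with the replicate block, gave -0.46, -0.47 and -0.47, and rescaling to an equal median gave -0.61, -0.65 and -0.65. Without control 1 and BMSC-treated 1, Mrpl30 was -0.026 and Mrps36 -0.19 as deposited, and the rescaled values were -0.11, -0.30 and -0.47. In BMSC-treated against COPD model, where deposited values of Mrpl15, Mrpl42, Mrps23 and Mrps36 lay just below 0, the equal sum gave 0.49, 0.68, 0.75 and 0.81 (also with the block) and the equal median 0.63, 0.85, 0.91 and 0.97. Without control 1 and BMSC-treated 1, Mrpl42, Mrps23 and Mrps36 were 0.081, 0.25 and 0.47 as deposited, and the 4 genes were 0.17, 0.37, 0.54 and 0.77 rescaled.

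Leaving out 1 library at a time, with deposited values, gave ranges that crossed 0. In the COPD model against control these were -0.048 (without COPD model 3) to 0.11 for Mrpl15, and, lowest without control 1, -0.026 to 0.29 for Mrpl30 and -0.19 to 0.43 for Mrps36. In BMSC-treated against COPD model, highest without BMSC-treated 1, they were -0.39 to 0.081 for Mrpl42, -0.36 to 0.25 for Mrps23 and -0.37 to 0.47 for Mrps36. In BMSC-treated against control, lowest without control 1 or without BMSC-treated 3 and highest without BMSC-treated 1, they were -0.24 to 0.63 for Mrps18c, -0.44 to 0.68 for Mrps28, -0.22 to 0.67 for Mrps36, -0.24 to 0.60 for Mrps7, -1.437 to 0.20 for Mrps6 and -1.254 to 0.11 for Mrpl40.

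Counts of members whose groups did not overlap moved most. Leaving out a library can only keep or raise such a count. Shares of all genes were not counted with an equal median, without single libraries, or as deposited without control 1 and BMSC-treated 1. Counts under those settings therefore show how the rule depends on the settings and are no result about the members. In the COPD model against control, 34 higher and 0 lower as deposited became 9 and 3 with an equal sum, 3 and 5 with an equal median, and 12 and 6 rescaled without control 1 and BMSC-treated 1, which gave 1 lower as deposited. In BMSC-treated against COPD model, 0 higher and 43 lower became 2 and 17, 4 and 3, and 8 and 23. In BMSC-treated against control, 0 and 0 became 1 and 7 with an equal sum, 6 lower with an equal median, 7 and 25 rescaled without those libraries, and 3 and 9 as deposited without them. Without 1 library at a time, deposited counts ran from 34 to 63 higher (63 without control 3) and 0 to 1 lower (1 without control 1) in the COPD model against control, 43 to 72 lower (72 without BMSC-treated 3) after BMSCs against the model, and 0 to 3 higher (3 without BMSC-treated 1) and 0 to 9 lower (9 without control 1) against control. Rescaled counts ran from 12 to 19 higher (19 without control 3 or COPD model 3) and 3 to 9 lower (9 without COPD model 1), then 3 to 8 higher (8 without BMSC-treated 1) and 17 to 28 lower (28 without COPD model 3), then 2 to 7 higher (7 without BMSC-treated 2) and 9 to 16 lower (16 without control 1). Rescaled values without single libraries were added after seeing the data. The median change of the members minus that of all genes kept within the replicate spread, except in BMSC-treated against COPD model, where it went from -0.14 to 0.00662 with an equal median.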
